A study of Mus musculus and Rattus norvegicus with 37 samples.

Results

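Triglyceride is built on a glycerol backbone by enzymes that add fatty acids one after another, and it is broken down again by lipases of the patatin-like phospholipase family. The gene set described here has 10 members, found by gene name in each of the 4 deposited tables, which held 47929 named mouse genes and 28026 named rat genes. The members are Gpam, Agpat2, Lpin1, Lpin2, Dgat1, Dgat2, Mogat1, Pnpla2, Pnpla3 and Pnpla5, and all 10 were listed in all 4 tables. Of these, 8 were chosen by their role in the pathway, whereas Pnpla3 and Pnpla5 were selected on their pattern in these same libraries. For this reason the levels and fold changes of Pnpla3 and Pnpla5 in the 4 comparisons are given as a description without a test.

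The data are RNA-seq values of 37 livers, 21 from female mice and 16 from male rats. Chow-fed mice received 1 subcutaneous injection of saline or of LNA29, a mixture of locked nucleic acid oligonucleotides that block miR-29, 20 mg/kg of each, and the livers were taken in the fed state on day 7. WT/Floxed mice (8 LNA29, 5 saline) pooled 7 C57BL/6J WT mice of 9 to 11 weeks with 6 mice carrying floxed Sirt1 of 15 to 20 weeks, and mice labelled L-Sirt1 KO (4 LNA29, 4 saline) were of 15 to 20 weeks with a deletion of Sirt1 meant for the liver alone. Zucker fatty rats (ZFR), which are fa/fa and lack a working leptin receptor, were compared with Zucker lean rats (ZLR) at 5.5 months on chow (4 each), and ZFR of 3 months received BT2, an inhibitor of the kinase of branched-chain ketoacid dehydrogenase, at 20 mg/kg daily or vehicle (DMSO) by intraperitoneal injection for 1 week (4 each).

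All values below are normalized counts as deposited by the authors, who scaled each table separately with DESeq2 factors, so levels are compared within a table. From the value of 1 read in each library, 42.6 to 78 M reads were estimated per mouse and 0.188 to 58.5 M reads per rat. One read was therefore worth 0.746 to 1.37 normalized counts in mice but 0.0322 to 10.5 in rats. Sirt1 counts were 535 to 617 in the mice labelled L-Sirt1 KO and 493 to 699 in the WT/Floxed mice. These ranges come from tables scaled separately and were not tested against each other, so they do not decide on the deletion. The paper measured hepatic Sirt1 in both genotypes by RT-qPCR and treats the L-Sirt1 KO mice as lacking it in the liver. The label is kept as given. The hepatocyte markers Alb, Ttr, Apoa1, Hnf4a, Cps1 and Tat summed to at least 4240000 normalized counts in every mouse and 168000 in every rat. In whole liver, fewer cells of a type and less RNA per cell cannot be told apart.

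In the glycerol phosphate pathway, Gpam (mitochondrial glycerol phosphate acyltransferase) adds the first fatty acid and Agpat2 the next one, which gives phosphatidic acid. The lipins Lpin1 and Lpin2 remove its phosphate to give diacylglycerol, which can also come from Mogat1, an acyltransferase for monoacylglycerol. Dgat1 and Dgat2 add the last fatty acid. Pnpla2, also known as adipose triglyceride lipase, takes the first fatty acid off stored triglyceride. Pnpla3 sits on lipid droplets and is a known target of the lipogenic factor Srebf1, and Pnpla5 is a less studied lipase of the same family.

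The sequences that connect the LNA29 comparison to the members are those of the miR-29 family, which share 1 seed (bases 2 to 8, in capitals), and the places in the members' annotated mouse 3′ UTRs where the complement of that seed occurs. The mature sequences, from RefSeq with positions on GRCm38.p6, were the following.
mmu-miR-29a-3p (chr6:31062673-31062694, minus strand): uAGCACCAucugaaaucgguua
mmu-miR-29b-3p (chr6:31063025-31063047, minus strand, and chr1:195037091-195037113, plus strand): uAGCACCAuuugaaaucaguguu
mmu-miR-29c-3p (chr1:195037600-195037621, plus strand): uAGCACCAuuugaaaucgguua
A match to the seed, TGGTGCT on the transcript strand, was found in 2 of the 10 members, Gpam and Lpin1, and in 13.8% of the 21020 protein-coding genes with an annotated 3′ UTR in GENCODE vM21. Each of these members held 1 match, shown in capitals with its neighbouring bases.
Gpam (3′ UTR, chr19:55069118-55069124 for the match, minus strand): tcataattaacTGGTGCTttgaaacctt
Lpin1 (3′ UTR, chr12:16535687-16535693 for the match, minus strand): gggtggatccgTGGTGCTggctagacag
Neither match was followed by an A, the base that extends a seed match to its longest form. The Gpam match began at base 1806 of a 3′ UTR of 3294 bases and the Lpin1 match at base 2720 of 2744. The other 8 members had no such letters in their longest 3′ UTRs, which ranged from 75 bases in Mogat1 to 2846 bases in Lpin2.

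Pnpla3 and Pnpla5 are neighbours on mouse chromosome 15. Pnpla3 lies on the plus strand at chr15:84167837-84187236 and Pnpla5 on the minus strand at chr15:84112356-84123175 (GRCm38, GENCODE vM21), so that the genes point away from each other with 44.7 kb and 0 other protein-coding genes between them. Since both genes moved together in the data below, their mouse promoters (250 bases before to 50 bases after the RefSeq start, GRCm38.p6) are shown, with any match to the E-box CACGTG or to the sterol response element core TCACNCCAC in capitals, both strands searched.
Pnpla3 (chr15:84167566-84167865, plus strand): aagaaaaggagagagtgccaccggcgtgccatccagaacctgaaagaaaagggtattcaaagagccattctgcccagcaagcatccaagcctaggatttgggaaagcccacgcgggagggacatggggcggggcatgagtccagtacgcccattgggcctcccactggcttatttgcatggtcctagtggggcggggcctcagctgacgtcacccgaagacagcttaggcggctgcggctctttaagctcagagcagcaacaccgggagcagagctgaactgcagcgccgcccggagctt
Pnpla5 (chr15:84123126-84123425, minus strand): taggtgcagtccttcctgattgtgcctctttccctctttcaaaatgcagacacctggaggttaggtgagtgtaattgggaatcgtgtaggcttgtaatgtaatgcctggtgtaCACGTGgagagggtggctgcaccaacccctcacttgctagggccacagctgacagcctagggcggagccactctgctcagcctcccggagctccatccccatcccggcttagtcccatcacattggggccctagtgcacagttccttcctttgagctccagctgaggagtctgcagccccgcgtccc
The Pnpla5 window held 1 E-box, whose first base lay 137 bases before the start, and the Pnpla3 window held neither motif. Among 8 members with a promoter in the table (11 windows, without Dgat1 and Dgat2), the only other match was an E-box at base -9 of 1 Lpin2 window. E-boxes were found in 7.15% and the sterol response element core in 1.24% of all 32851 promoters of this length.

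The other members lie apart from each other. Gpam is at chr19:55067268-55127238 on the minus strand, Agpat2 at chr2:26593057-26604417 on the minus strand, Lpin1 at chr12:16535669-16610966 on the minus strand and Lpin2 at chr17:71182560-71249817 on the plus strand. Dgat1 is at chr15:76502015-76511953 and Dgat2 at chr7:99153658-99182719, both on the minus strand, and Mogat1 at chr1:78510991-78538173 and Pnpla2 at chr7:141455198-141460743, both on the plus strand. Reads from overlapping genes could be shared where exons overlap, which was the case for 64 bases of Agpat2 with Egfl7 and 200 bases of Mogat1 with BC035947, both on the opposite strand, and for 105 bases of Pnpla3 with Gm49513 on the same strand.

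Per kb of exon sequence, the levels in saline-treated WT/Floxed liver spanned from Dgat2 to Pnpla5. Dgat2 had 10400 ± 1160 normalized counts per kb (SD, n = 5) and Agpat2 5480 ± 461, and these 2 genes did not overlap with each other or with the next member. Pnpla2 (1030 ± 239), Gpam (868 ± 239), Lpin2 (863 ± 391), Lpin1 (418 ± 293), Dgat1 (359 ± 48.2) and Pnpla3 (253 ± 187) followed, and each overlapped with its neighbour in this order. Mogat1 had 16.8 ± 4.78 and Pnpla5 7.17 ± 5.01 normalized counts per kb, which also overlapped with each other. Thus Dgat2 was far above Dgat1 per kb, and among the patatin-like lipases of the set Pnpla2 had the highest level. Lipases outside the set were not put on this scale.

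To ask how LNA29 changed these genes in WT/Floxed mice, the 8 members chosen by role were tested with limma together with all 15811 genes of sufficient level. By the study's criteria (p under 0.05, adjusted p under 0.2, mean above 50 normalized counts, fold change above 1.2), 0 of the 8 were called, against 4.35% of all genes. Mogat1, at a mean of 23.5, was under the limit on the mean and could not be called whatever its change. For 1 of the 8, Agpat2, the unadjusted p was under 0.05, and across all genes this was so for 2105. In groups without overlap, the background was 1.51% of genes and 0 of the 8 members. Agpat2 had a lowest, median and highest count of 8486, 10330 and 11613 in LNA29-treated mice, and 10362, 11629 and 13098 in saline-treated mice. The LNA29 values reached down below all saline values, but their upper part overlapped with the lower part of the saline range. The log2 fold change was -0.21 ± 0.09 (SE), with an adjusted p of 0.307 in limma.

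Gpam and Lpin1, the members with a seed match, were not called with LNA29. Gpam counts in the LNA29 group were 3212 at the lowest, 4708 at the median and 6401 at the highest, and the saline-treated mice had 6872, 3561, 7570, 6005 and 4913. Both floxed saline mice were below the 3 WT saline mice. The log2 fold change of Gpam was -0.30 ± 0.19 (95% interval -0.71 to 0.11, adjusted p = 0.552 in limma). Lpin1, with saline values of 8398, 1174, 3525, 5005 and 2106, varied widely among the saline mice alone, and its log2 fold change of 0.03 had an interval of -0.77 to 0.83. The interval of Lpin2 was -0.37 to 0.81 and that of Pnpla2 -0.17 to 0.41. The acyltransferases of the last step had narrow intervals, -0.29 to 0.12 for Dgat1 and -0.29 to 0.04 for Dgat2. Mogat1, at 11.5 to 47.6 normalized counts in all WT/Floxed mice, had a wide one (-1.02 to 0.33).

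**Figure D1:**
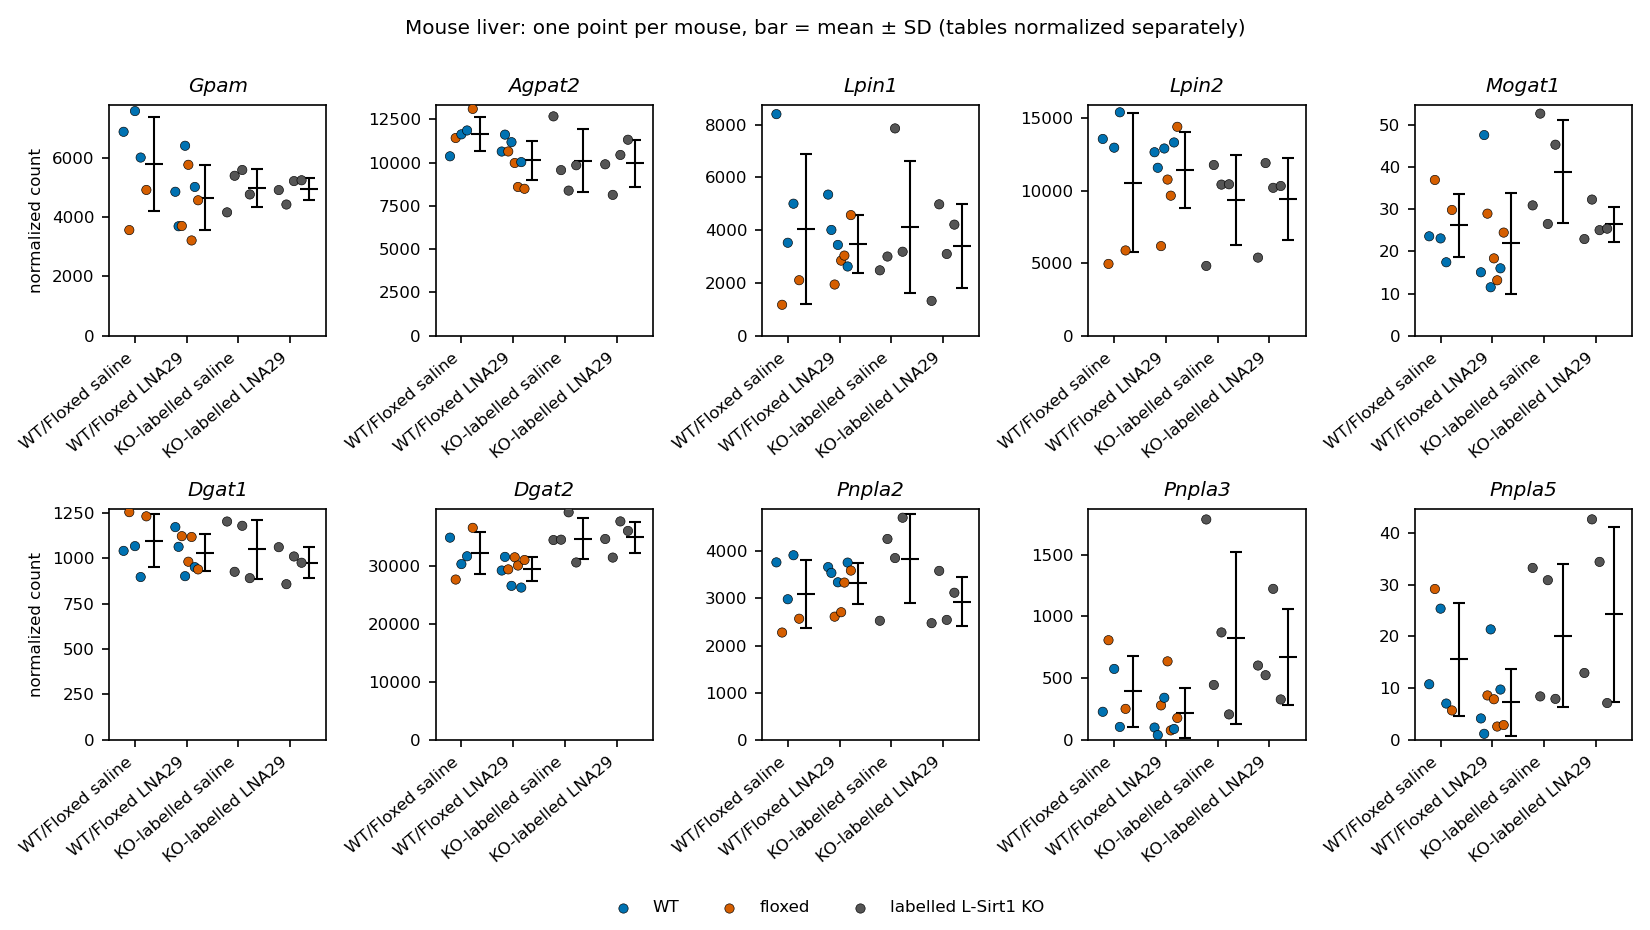
Normalized counts (y axis, linear from 0) of the 10 genes in each mouse, by group, with the mean ± SD to the right of the points and colours for WT, floxed and labelled L-Sirt1 KO mice. The LNA29 and saline points of each gene overlap, and the floxed saline mice lie at the bottom of their group for Lpin1, Lpin2 and Pnpla2.

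Pnpla3 and Pnpla5 were both lower with LNA29 in the WT/Floxed means. The 5 saline-treated mice had Pnpla3 counts of 226, 806, 574, 104 and 250, and the 8 LNA29-treated mice 37.9 at the lowest, 138 at the median and 635 at the highest. The groups thus overlapped over most of their range, although 4 of the 8 LNA29 mice had fewer than 104 counts. The mean was 216 ± 199 with LNA29 and 392 ± 290 with saline, a log2 fold change of -1.02. Pnpla5 counts were 10.7, 29.1, 25.3, 7 and 5.66 with saline and 1.15, 5.97 and 21.3 (lowest, median and highest) with LNA29, a log2 fold change of -1.09. With the background (WT or floxed) added to the model these values were -1.12 for Pnpla3 and -1.08 for Pnpla5. Their size depended on the processing and on single mice. The value of Pnpla3 was -0.71 with the replicate number as a block, -0.85 with sample quality weights and -0.67 without saline replicate 2. That of Pnpla5 was -0.54 with a pseudocount of 10. Pnpla5 values of this size rest on few reads, since 1 read was worth about 1 normalized count in mice.

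Genes of the fed and fasted states were counted beside them, since Pnpla3 and the lipogenic enzymes are known to rise with feeding. Srebf1, Fasn and Acly, genes of the fed state, had lower means with LNA29 in WT/Floxed mice. Fasn and Acly were called lower (log2 fold changes -0.68 and -0.78), against 4.35% of all genes called in either direction. Of the fasted-state genes Pck1, G6pc, Igfbp1, Pdk4, Angptl4 and Cpt1a, 6 of 6 had higher means and 0 were called. In the mice labelled L-Sirt1 KO, 4 of these 6 had log2 fold changes above 0. G6pc and Igfbp1 were called higher there (0.75 and 1.19), against 1.87% of all genes called, and their groups did not overlap, against 6.95% of all genes. Srebf1, Fasn and Acly were not called in those mice (0.21, -0.46 and -0.07). Food intake before collection was not measured in these files and its part was not tested.

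In the mice labelled L-Sirt1 KO, 0 of the 8 members were called, against 1.87% of all 15885 genes. Mogat1 was again under the limit on the mean (26.42 with LNA29 and 38.85 with saline) and could not be called. No unadjusted p among the 8 was under 0.05, whereas 1779 of all genes had one, and 0 of the 8 had groups without overlap, against 6.95% of all genes. Pnpla2 had counts of 2475, 3584, 2543 and 3120 with LNA29 and 2525, 4261, 3856 and 4712 with saline, so that saline replicate 1 lay among the LNA29 mice and the other saline mice above them. Its log2 fold change was -0.37 ± 0.20 (adjusted p = 0.534 in limma), and without saline replicate 1 it was -0.56 and called (adjusted p = 0.177). The highest value, saline replicate 4, came from the library with the highest sum of the adipocyte markers Adipoq, Lep, Plin1, Fabp4, Cfd and Retn (2277 normalized counts against 299.7 to 1061 in the other 7), and without it the log2 fold change was -0.26. Mogat1 had 22.9 to 32.3 counts with LNA29 and 26.5 to 52.7 with saline (log2 fold change -0.50, adjusted p = 0.538).

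The members of the glycerol phosphate pathway were not called in these mice. Gpam, Agpat2, Lpin2 and Dgat2 had log2 fold changes between -0.02 and 0.03, and of these Gpam had the interval -0.25 to 0.24. Lpin1 was highest in saline replicate 3 (7857), above the other saline mice (2481, 3003 and 3185) and all LNA29 mice (1322, 4981, 3100 and 4212), and its log2 fold change was -0.28 (95% interval -1.28 to 0.73).

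Pnpla3 in the mice labelled L-Sirt1 KO had counts of 1784, 444, 869 and 205 with saline and 601, 523, 1222 and 326 with LNA29. The LNA29 values all lay inside the saline range, and the log2 fold change was -0.04. This value rested on single mice, since it was -0.57 without saline replicate 4 and 0.47 without saline replicate 1, and it was 0.38 with sample quality weights. Pnpla5 had 33.2, 8.37, 30.8 and 7.9 counts with saline and 12.9, 42.6, 34.4 and 7.1 with LNA29, a log2 fold change of 0.23, which was -0.09 without saline replicate 4 and 0.68 without LNA29 replicate 4. The values of -1.02 and -1.09 in WT/Floxed mice and of -0.04 and 0.23 here come from separate animals, and their difference was not tested because these genes were selected on it. For the 8 members chosen by role, the difference between the 2 responses was tested over 15601 genes, and 0 were called at an adjusted p under 0.2, against 0.0449% of all genes. Its lowest p among the members was 0.0588 for Pnpla2 (log2 difference -0.49, adjusted p = 0.561 in limma).

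WT and floxed mice of the pooled group were also compared, which is a comparison that the choice of members did not use. Of the 8 members chosen by role, 4 were called at an adjusted p under 0.2 with treatment in the model, all lower in floxed mice, against 25.7% of all genes. Many genes thus differed between these mice, and the count of members is not set apart from that background. Age, which was higher in the floxed mice, cannot be told apart from the background, and the deposited table lacks 1 floxed saline mouse that the authors excluded.

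Lpin2 had the lowest p of these. In WT mice it had 12661, 11587, 12918 and 13334 counts with LNA29 and 13575, 12974 and 15415 with saline, whereas floxed mice had 6186, 10775, 9664 and 14412 with LNA29 and 4957 and 5886 with saline. One floxed mouse, LNA29 replicate 8, reached the WT range and the other 5 lay below it. The log2 difference was -0.74 ± 0.19 (adjusted p = 0.0428 in limma). Pnpla2 had 2848 ± 504 counts in floxed mice (SD, n = 6) and 3567 ± 317 in WT mice (n = 7), a log2 difference of -0.35 (adjusted p = 0.0499). Lpin1 was lower by 2614 ± 1171 against 4623 ± 1910 counts, and Gpam by 4285 ± 966 against 5772 ± 1332 counts. Their log2 differences were -0.86 and -0.40, with adjusted p-values of 0.0973 and 0.138 in limma.

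The calls of Lpin1 and Gpam depended on single mice. Lpin1 lost its call in 2 of 13 fits with 1 mouse left out, without saline replicate 2 (adjusted p = 0.229 in limma) or 5 (0.205). Both of these are floxed saline mice, which had the lowest Lpin2 counts of the table. Gpam lost its call in 7 of the 13 fits, without saline replicate 1, 2, 3 or 5 or LNA29 replicate 3, 4 or 6, with adjusted p-values of 0.202 to 0.311. Lpin2 and Pnpla2 were called in all 13. Agpat2, Dgat1, Dgat2 and Mogat1 had log2 differences between -0.09 and 0.29 and were not called in the 13 mice. The log2 difference of Pnpla5 was -0.16. Pnpla3, at 370 ± 285 counts in floxed mice and 210 ± 191 in WT mice, had a log2 difference of 1.02. It was 1.35 without LNA29 replicate 4 and 1.32 without LNA29 replicate 6. Dgat1 was called without LNA29 replicate 1 (0.19, adjusted p = 0.165) and Mogat1 without LNA29 replicate 2 (0.55, 0.135), both higher in floxed mice.

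**Figure D2:**
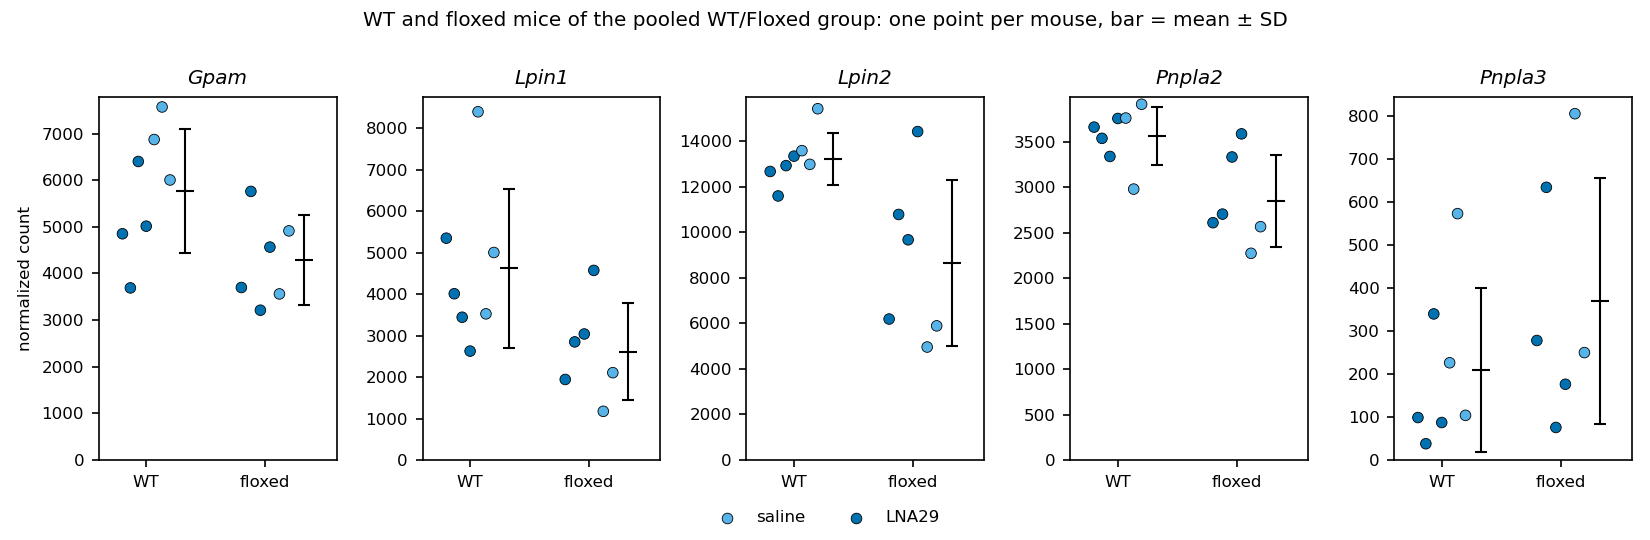
Normalized counts (y axis, linear from 0) of 5 members in each WT and floxed mouse of the WT/Floxed group, coloured by treatment, with the mean ± SD. Most floxed mice lie below the WT mice for Lpin2 (4957 to 10775, with 1 at 14412), while Pnpla3 overlaps in part, with 2 floxed mice (635 and 806) above the highest WT mouse (574).

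Beyond treatment and genotype, Pnpla3 varied from mouse to mouse together with both other patatin-like lipases of the set. After the mean of each group was removed from the log2 counts, Pnpla3 and Pnpla5 rose and fell together over the 21 mice, and Pnpla2 moved the opposite way. For Pnpla5 the Pearson r was 0.76 and the Spearman rho 0.76 (n = 21). No p is given for this pair, because both genes were selected on their pattern in these same libraries. For Pnpla2 the Pearson r was -0.73 and the Spearman rho -0.71 (n = 21, two-sided permutation p = 0.00037 and 0.00117). Adjusted over the 9 pairs of Pnpla3 with another member, these permutation p-values were 0.00171 and 0.00527. Both adjusted values depend on the Pnpla5 pair, which is among the 9. Pnpla3 itself was selected on its pattern, which limits what these p-values can show. Without the 2 mice farthest from the median of Pnpla3, r was 0.70 for Pnpla5 and -0.74 for Pnpla2.

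Both relations kept their sign within each of the 3 flow cells (6, 8 and 7 mice), with r of 0.76, 0.85 and 0.43 for Pnpla5 and of -0.76, -0.78 and -0.65 for Pnpla2. With the mean of each group and background removed, r was 0.85 and -0.72. Without the mouse whose library had the highest adipocyte marker sum, which also had the most Pnpla2 and the least Pnpla3 of its group, r was 0.74 and -0.70. The mouse with the most Pnpla3 of all, L-Sirt1 KO saline replicate 1 (1784 counts), had the lowest Pnpla2 of its group (2525), and WT/Floxed saline replicate 4, with the least Pnpla3 of its group (104), had the most Pnpla2 (3916).

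Of the other 7 pairs, 0 had an adjusted permutation p under 0.05, and their r ranged from -0.41 for Lpin2 to 0.31 for Dgat1. The r of Pnpla3 with Gpam changed sign between flow cells (0.77, -0.43 and 0.09), as did that with Agpat2, Lpin1, Lpin2, Dgat1, Dgat2 and Mogat1. Among the members other than Pnpla3, the highest r were 0.86 for Lpin2 with Pnpla2 and 0.80 for Lpin1 with Lpin2, and Dgat1 ran opposite to Lpin2 (-0.73) and to Pnpla2 (-0.70). These are descriptions over the same 21 mice.

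**Figure D3:**
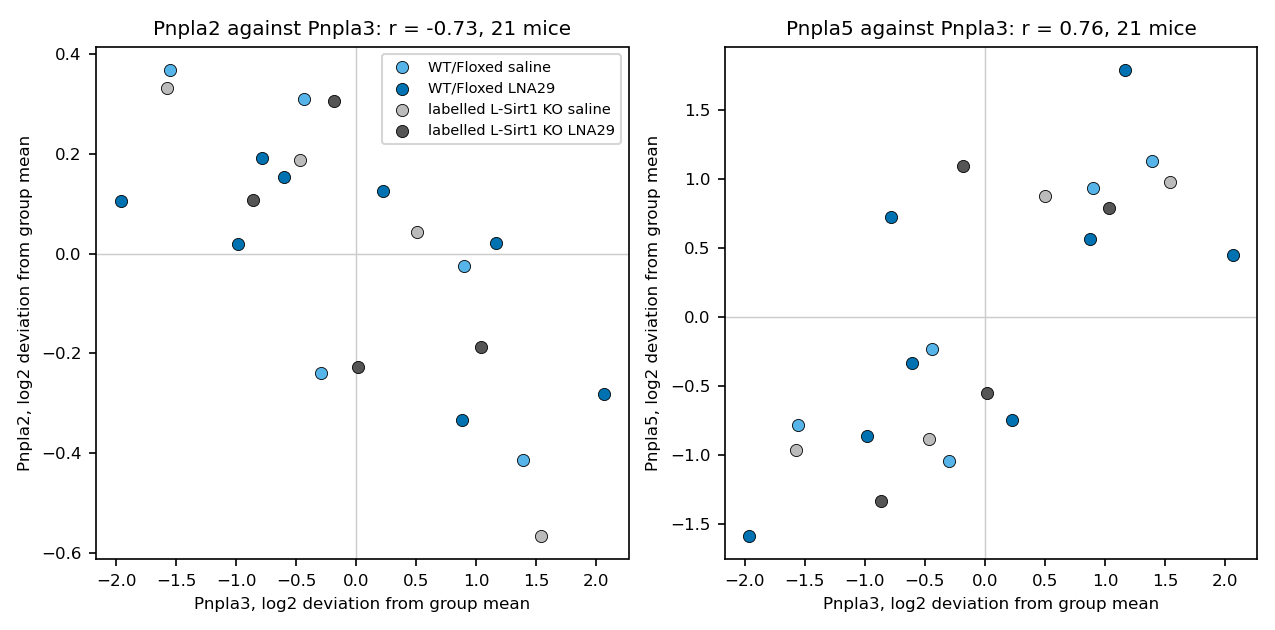
Log2 deviation of Pnpla2 (left) and Pnpla5 (right) from the mean of its group, against that of Pnpla3, with 1 point per mouse (21 mice) coloured by group. Pnpla2 falls (r = -0.73) and Pnpla5 rises (r = 0.76) with Pnpla3 across the groups.

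Among 12751 genes outside the set with a mean above 50 in both mouse tables, those whose deviations were most like Pnpla3 over the 21 mice were Pmvk (r = 0.89), Srebf1 (0.84), Acat2 (0.83), Nampt (0.82) and Fasn (0.82). Pmvk and Acat2 are enzymes of sterol synthesis, Srebf1 is the transcription factor of lipogenesis, Fasn is fatty acid synthase and Nampt makes a precursor of NAD. Those most like Pnpla5 were Pgd (0.82), Pmvk (0.80), Acly (0.78), Acss2 (0.78) and Commd10 (0.75), of which Pgd supplies NADPH and Acly and Acss2 make acetyl-CoA. Pmvk stood on both lists. Since these genes were ranked by r over the same mice, no p is attached.

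In rats, the same 2 lipases were far higher in ZFR than in ZLR. Pnpla3 had 69, 128, 116 and 94 counts in the 4 ZLR and 1609, 1381, 1619 and 1806 in the 4 ZFR. The groups did not overlap, and the 4 ZFR were close to each other. The mean was 1604 ± 174 in ZFR and 102 ± 25.9 in ZLR, a ratio of 15.8 and a log2 fold change of 4.00. Within the flow cells (2 rats of each group in each) it was 3.97 and 4.02. For the value of 4.02 the 2 ZLR libraries, replicates 3 and 4, held only 11 and 9 reads of Pnpla3.

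Pnpla5 had 222, 181, 186 and 190 counts in ZFR. In ZLR the 2 deep libraries had 10.3 and 9.37 counts, from 269 and 217 reads, and the 2 shallow ones, in which 3 reads are worth 31.6 and 31.3 counts, were at 0. All ZFR were above all ZLR. The log2 difference was 4.22 in the flow cell of the deep ZLR libraries and 4.17 without the libraries under 0.5 M reads, which are the 2 shallow ZLR. The value over all rats, 5.89, rests on the zeros and fell to 3.86 with a pseudocount of 10.

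Of the 8 members chosen by role, 7 passed the minimum mean of 10 counts in this table and 2 of these were called at an adjusted p under 0.05, Gpam and Lpin2, both higher in ZFR, against 4.25% of all 8633 genes tested. Both also had groups without overlap, as 14.5% of all genes did. Mogat1 was not tested, since it was listed at 0 in 4 of the 8 rats and at 0.0301 to 2.44 counts in the others.

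Gpam had 130, 145, 64.3 and 165 counts in ZLR and 371, 238, 363 and 359 in ZFR, so that the lowest ZFR was above the highest ZLR. The log2 fold change was 1.46 ± 0.28 (adjusted p = 0.0184 in limma), and by flow cell it was 1.11 and 1.80. Lpin2 had 107, 64.2, 82.3 and 40.8 counts in ZLR and 144, 251, 211 and 127 in ZFR, and here the lowest ZFR was only slightly above the highest ZLR. Its log2 fold change was 1.34 ± 0.31 (adjusted p = 0.0436), and by flow cell it was 1.19 and 1.48. In the 2 shallow ZLR libraries, replicates 3 and 4, the counts rest on an estimated 6.1 and 15.8 reads for Gpam and 7.8 and 3.9 reads for Lpin2. Without these 2 libraries the log2 fold change was 1.25 for Gpam (adjusted p = 0.00695 in limma) and 1.08 for Lpin2 (0.0754). A two-sided exact permutation test of either gene gave p = 0.0286, the smallest that 4 against 4 rats allows.

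These calls were near their limit. With the replicate block, Gpam had an adjusted p of 0.051 and Lpin2 of 0.0511, and when single rats were left out Gpam lost its call in 3 of 8 fits (ZFR replicate 1, 3 or 4) and Lpin2 in 7 of 8 (all but ZLR replicate 1). The log2 fold changes in these fits were 1.16 to 1.61 for Gpam and 1.09 to 1.54 for Lpin2.

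The remaining members differed less between ZFR and ZLR. Agpat2 had 93.5, 93.6, 116 and 73.1 counts in ZLR and 76.9, 51.8, 79.4 and 88.7 in ZFR, a log2 fold change of -0.35 (95% interval -0.81 to 0.12). Dgat2 had 994, 962, 579 and 679 counts in ZLR and 972, 885, 740 and 1034 in ZFR (0.20, interval -0.22 to 0.62), and Dgat1 an interval of -0.34 to 0.54. Both changed sign without the 2 shallow ZLR (-0.12 for Dgat2 and -0.06 for Dgat1). Lpin1 (0.40, -0.52 to 1.32) and Pnpla2 (0.51, -0.31 to 1.33) had wide intervals, and Lpin1 spanned 93.4 to 428 counts within ZFR.

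Of the 7 marker lists (hepatocytes, adipocytes, stellate cells, macrophages, endothelial cells, cholangiocytes and acinar cells), the summed levels of ZFR and ZLR overlapped for all but the acinar list, and in the other 3 comparisons the groups overlapped for all 7. The acinar markers Cpa1, Cela1, Pnlip and Ctrb1 summed to 4.18 to 8.24 counts in ZFR and 15.2 to 41.8 in ZLR, and their part in the members' differences was not tested. Adipocyte markers summed to 24.0 to 106 counts in ZFR and 10.4 to 87.0 in ZLR, so that the groups overlapped.

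**Figure D4:**
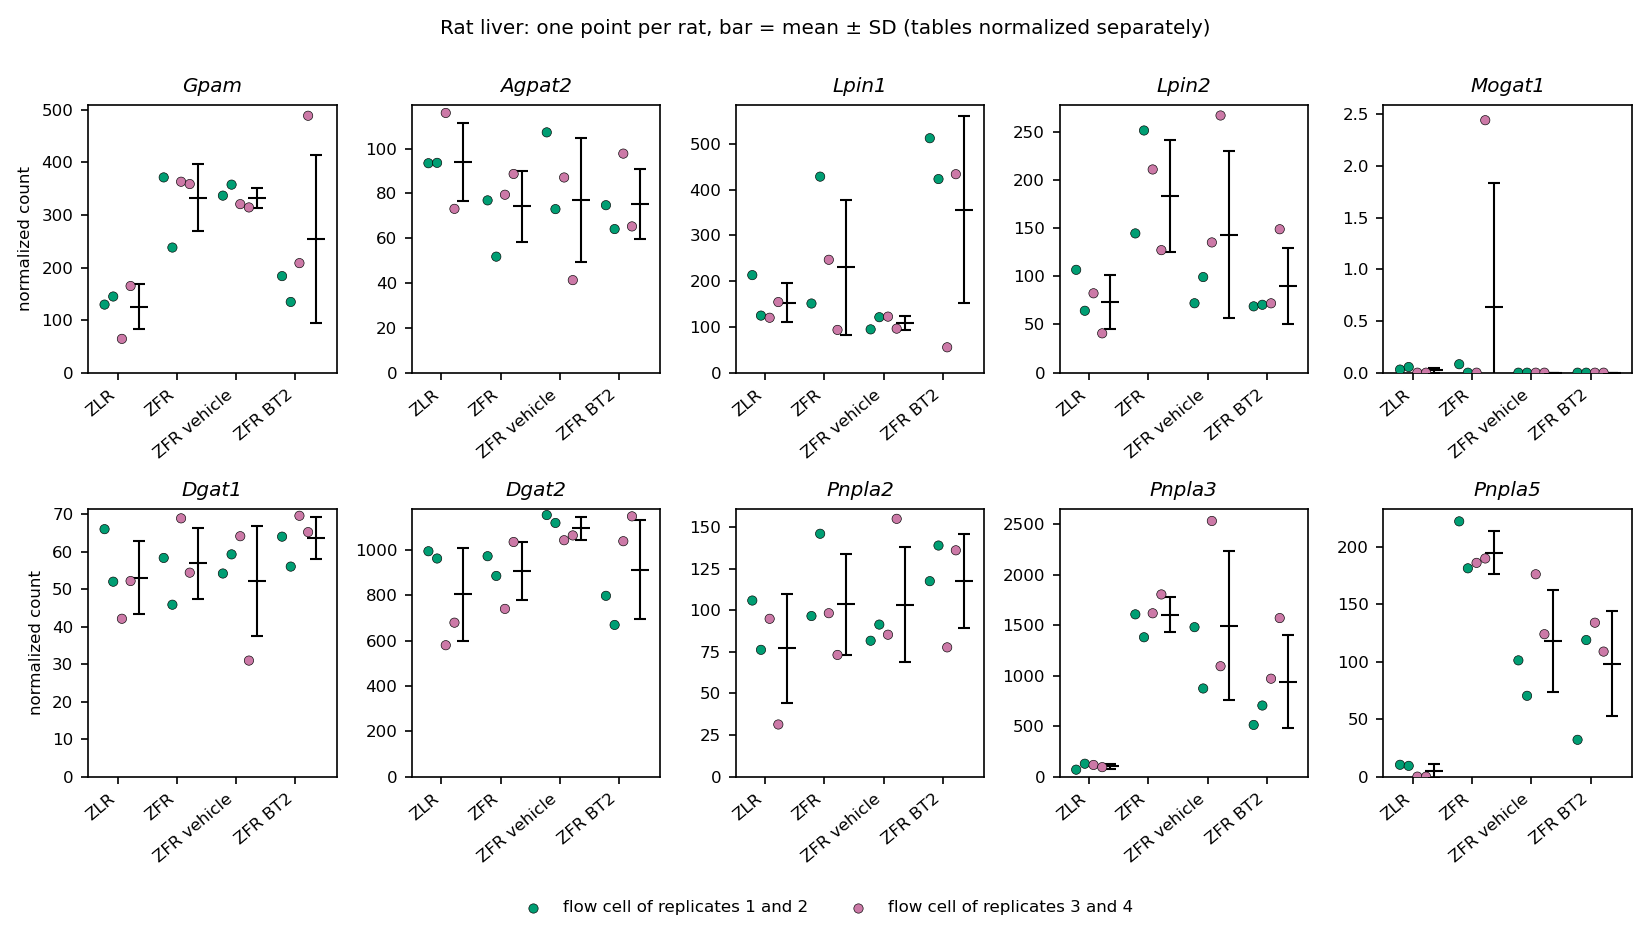
Normalized counts (y axis, linear from 0) of the 10 genes in each rat, by group, with the mean ± SD and colours for the flow cells. ZFR lie above all ZLR for Pnpla3, Pnpla5, Gpam and Lpin2, and the BT2 points overlap with the vehicle points for every gene.

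To ask whether BT2 changed the set in ZFR, the same test was made on 8405 genes. It called 0 of the 7 members tested and 0% of all genes at an adjusted p under 0.05 (limma), with 332 genes at an unadjusted p under 0.05. Lpin1 was the 1 member among them. In groups without overlap there were 0 of the 7 members, against 2.96% of all genes.

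Lpin1 had 94.6, 121, 122 and 96.2 counts with vehicle and 512, 423, 55.4 and 434 with BT2. Of the BT2-treated rats 3 were far above every vehicle rat, and replicate 3 was below all of them. The log2 fold change was 1.31 ± 0.58 (adjusted p = 0.898 in limma), and without BT2 replicate 3 it was 2.07 with an adjusted p of 0.00192. That library, at 1 read for 1.34 counts, was among the deeper BT2 libraries.

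Gpam had 337, 358, 321 and 314 counts with vehicle and 184, 135, 208 and 489 with BT2, again with 1 rat apart from the other 3, here replicate 4. The log2 fold change was -0.56 ± 0.32 (adjusted p = 0.898), and without BT2 replicate 4, in which 1 read was worth 5.44 counts, it was -0.94 (adjusted p = 0.576). Lpin2 had 72, 99.2, 135 and 267 counts with vehicle and 68.8, 70.4, 72 and 149 with BT2, with a log2 fold change of -0.57. Its highest values in both groups, 267 and 149, came from replicate 4 of each group, the shallowest library of that group. The intervals of Agpat2 (-0.60 to 0.66), Dgat1 (-0.21 to 0.87), Dgat2 (-0.65 to 0.07) and Pnpla2 (-0.36 to 0.76) all included 0. Mogat1 was listed at 0 in all 8 rats.

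Pnpla3 had 1482, 874, 2534 and 1094 counts with vehicle and 512, 705, 971 and 1572 with BT2. The lowest values came from BT2-treated rats and the highest from a vehicle rat, and the groups overlapped between 874 and 1572. The log2 fold change was -0.68, and without the 2 libraries under 0.5 M reads, vehicle replicate 4 and BT2 replicate 4, it was -1.07. Pnpla5 had 101, 70.3, 176 and 124 counts with vehicle and 32, 119, 134 and 109 with BT2 (log2 fold change -0.36). The value of 32, from BT2 replicate 1, rested on 9 reads, and without this rat the log2 fold change turned to 0.10. The fed-state enzymes Fasn and Acly had lower counts with BT2 without overlap, against 2.96% of all genes without overlap. Their log2 fold changes were -0.87 and -0.56, with adjusted p-values of 0.510 and 0.898 in limma.

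**Figure D5:**
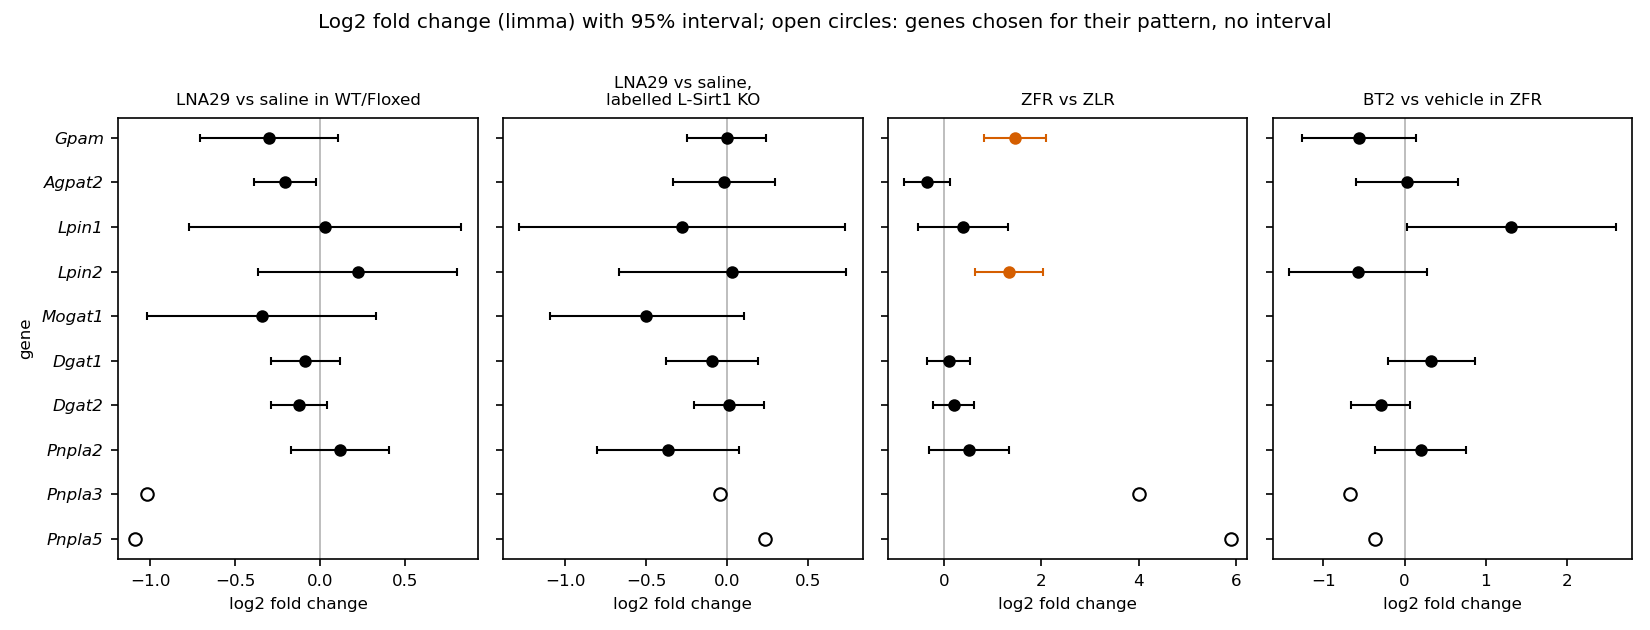
Log2 fold change of each member (x axis, a separate scale in each panel) in the 4 comparisons, with 95% intervals for genes chosen by role and open circles without interval for Pnpla3 and Pnpla5. Only Gpam and Lpin2 in ZFR vs ZLR, drawn in orange, passed the test (1.46 and 1.34), and Mogat1 is missing in the rat panels because it was not tested.

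Other genes of the pathway were counted from lists of 18 further synthesis genes (acyltransferases, acyl-CoA synthetases and glycerol kinase among them) and 8 further lipolysis genes. With LNA29, 0 of 17 synthesis and 0 of 7 lipolysis genes tested were called in WT/Floxed mice, against 4.35% of all genes. The same numbers were found in mice labelled L-Sirt1 KO, against 1.87% of all genes. Median log2 fold changes of the synthesis and lipolysis lists were -0.03 and -0.003 in WT/Floxed mice, beside 0.002 over all genes. For the mice labelled L-Sirt1 KO they were -0.004 and -0.17, beside -0.003.

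In ZFR vs ZLR, 3 of 13 synthesis genes were called, against 4.25% of all genes, and 0 of 7 lipolysis genes. The 3 called genes were lower in ZFR, while over the list 7 genes had higher and 6 had lower values. Gk, glycerol kinase, had 304 counts in ZFR and 689 in ZLR on average (log2 fold change -1.23 ± 0.19, adjusted p = 0.00657 in limma). Acsl4 and Acsl1, which activate fatty acids to acyl-CoA, had log2 fold changes of -0.97 and -0.47 (adjusted p = 0.00227 and 0.0214 in limma). Groups did not overlap for 6 of the 13 synthesis genes and 1 of the 7 lipolysis genes, against 14.5% of all genes. Of these 6 synthesis genes, the other 3 were higher in ZFR and not called, Plpp2 (1.34, adjusted p = 0.0753 in limma), Gpd1 (0.49, 0.129) and Acsl5 (0.40, 0.0737). The lipolysis gene was Mgll, also higher in ZFR and not called (1.33, adjusted p = 0.067 in limma). The median of the synthesis list was 0.09, beside 0.07 over all genes. With BT2, 0 of 12 synthesis and 0 of 7 lipolysis genes were called, against 0% of all genes. Of the 7 lipolysis genes, 6 had lower means with BT2 (median -0.25, beside 0.006 over all genes).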

How the data were processed

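Livers of 21 mice and 16 rats were profiled by RNA-seq. The authors aligned reads to mm10 or rn6 with STAR, estimated gene counts with Salmon and divided them by DESeq2 normalization factors, so each deposited value is a signal, a normalized count, with each of the 4 tables normalized on its own. Whole reads could not be recovered (69.3% to 75.8% of values under 20 reads were whole in mice and 74.3% to 90.3% in rats, tolerance 0.01 reads), so no count model was run. The value of 1 read, the most frequent value above 0, gave the depth per library (42.6 to 78 M reads in mice, 0.188 to 58.5 M in rats). Limits of 3 reads cover counting error only, whereas the 95% intervals of fold changes are from limma and rest on the spread between animals, and 0 columns were left unmatched.

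Tests were made with limma 3.58.1 in R 4.3.3 (trend) on log2(normalized count + 1), for genes with a mean of at least 10, with Benjamini-Hochberg adjustment over all genes tested. The pseudocount pulls fold changes of low genes towards 0, and zeros in shallow libraries can enlarge them. Calls in mice needed a fold change over 1.2, a mean over 50, p under 0.05 and adjusted p under 0.2, and calls in rats an adjusted p under 0.05. WT and floxed mice were compared with treatment in the model, and responses of both genotypes by an interaction term, each at an adjusted p under 0.2. Correlations used 100000 permutations within groups. Labels do not say that same-numbered samples are paired, and their deviations did not go together in every pair (r of -0.281 to 0.241 in the 4 comparisons). Each library is 1 animal by its label.

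The members, lists and tests were chosen with earlier results of these data known. Named are all 10 members, the called genes of the pathway lists, the 5 genes most like Pnpla3 and Pnpla5, and fed and fasted state genes, of which 1 is not reported here. Tried as alternatives were TMM scaling, no minimum mean, a pseudocount of 10, sample quality weights, flow cell, replicate block, background, a stricter threshold and leaving out each library. Scripts were tested on simulated data. Python 3.11.15 with numpy 2.4.6 and matplotlib 3.10.9 was used for the rest.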

Additional observations from a re-analysis of the deposited data

Results flagged for a closer look

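Of 78 groups of 4 to 8 libraries examined for single values far from the rest (Dixon's test), 6 were flagged, and chance flags about 1 in 20 groups. In mice, Pnpla5 in WT/Floxed LNA29 replicate 4 was at 21.3 counts, above the next value of 9.70. The same library had the highest adipocyte marker sum of its group (725.7 counts). Lpin1 in L-Sirt1 KO saline replicate 3 was at 7857 counts, above the next value of 3185.

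In rats, Gpam in ZFR replicate 2 was the lowest of its group at 238 counts, below the next value of 359, and still above every ZLR. Mogat1 in ZFR replicate 4 was at 2.44 counts, from an estimated 1.57 reads, while the others of its group were at 0 to 0.082. Lpin2 in ZFR BT2 replicate 4 was at 149 counts, above the next value of 72, and Pnpla2 in ZFR vehicle replicate 4 was at 155 counts, above the next value of 91.3. Both of these libraries held under 0.5 M reads, with 1 read worth 5.44 and 10.3 counts.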

How the results depend on the processing

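The log2 fold change of Pnpla3 in ZFR vs ZLR was 3.88 to 4.07 over 7 alternatives and 3.83 to 4.12 with 1 rat left out. These values are a description, since Pnpla3 was selected on its pattern. The relation of Pnpla3 with Pnpla2 kept its sign (r of -0.77 to -0.69 with 1 mouse left out). Its adjusted permutation p was under 0.05 in every fit, but the Pnpla5 pair was part of the adjustment and Pnpla3 itself was selected. The relation of Pnpla3 with Pnpla5 kept its sign (0.71 to 0.81) and is given without a test, since both were selected on their pattern. The alternatives for these relations were chosen after the data were seen. The calls of Gpam and Lpin2 in ZFR vs ZLR did not hold in every alternative. Of the 2 members called, 0 were called with no minimum mean, 1 with TMM scaling, 1 with flow cell as covariate, 1 without libraries under 0.5 M reads (chosen after the data were seen), and 0 to 2 with 1 rat left out. The cause was not tested. Depth limits the rats, in which 1 read was worth up to 10.5 counts.

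Same-numbered libraries were not shown to be pairs. With the replicate block, 0 members were called in ZFR vs ZLR and 2 other pathway genes (3 without it), and in the other 3 comparisons the block left 0 members called, as without it.

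With sample quality weights, 2 pathway genes were called for LNA29 in WT/Floxed mice (0 in the main test), 3 in mice labelled L-Sirt1 KO (0), and 9 in ZFR vs ZLR (3), where flow cell as covariate gave 5. With 1 library left out, the pathway count was 0 to 1 in WT/Floxed mice and 0 to 2 in mice labelled L-Sirt1 KO, and the members called were 0 to 1 in mice labelled L-Sirt1 KO, 0 to 1 for BT2 and 2 to 5 for floxed vs WT (4 over all mice). The pathway count in WT/Floxed mice was decided by LNA29 replicate 4 or saline replicate 2, the counts in mice labelled L-Sirt1 KO by saline replicate 1 or 3, that for BT2 by BT2 replicate 3, and that for floxed vs WT by saline replicate 2 or 5. For fits with weights, a covariate, a replicate block or 1 library left out, the share of all genes called was not counted. Counts of called genes in these fits thus have no background beside them. An adjusted p under 0.05 in place of 0.2 left 0 members called for LNA29 in either genotype.

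The values that changed sign were of genes not called, or not tested, in that comparison. With sample quality weights these were Lpin1 for LNA29 in WT/Floxed mice (-0.35), Gpam (0.00339), Agpat2 (0.0461), Lpin2 (-0.0647) and Pnpla3 (0.38) in mice labelled L-Sirt1 KO, Dgat2 in ZFR vs ZLR (-0.0149), Agpat2 for BT2 (-0.25), and the difference between genotypes in response for Lpin1 (0.23) and Dgat1 (0.0281). TMM scaling gave -0.000288 for Dgat2, and flow cell as covariate 0.0547 for Gpam and -0.0339 for Pnpla5, in mice labelled L-Sirt1 KO. Without libraries under 0.5 M reads, Dgat1 (-0.0571) and Dgat2 (-0.12) in ZFR vs ZLR and Agpat2 for BT2 (-0.18) changed sign.

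With 1 library left out, the log2 fold change with LNA29 in WT/Floxed mice was -0.34 to 0.37 for Lpin1 and -0.0153 to 0.39 for Lpin2. In mice labelled L-Sirt1 KO it was -0.085 to 0.0569 for Gpam, -0.10 to 0.10 for Agpat2, -0.52 to 0.12 for Lpin1, -0.26 to 0.28 for Lpin2 and -0.0464 to 0.0734 for Dgat2, and also -0.57 to 0.47 for Pnpla3 and -0.13 to 0.68 for Pnpla5. For ZFR vs ZLR it was -0.00231 to 0.21 for Dgat1, and for BT2 -0.24 to 0.21 for Agpat2 and -0.58 to 0.10 for Pnpla5. The difference between genotypes in response was -0.65 to 0.0925 for Lpin1, -0.48 to 0.0619 for Lpin2, -0.0835 to 0.0611 for Dgat1 and -0.31 to 0.0213 for Mogat1, and that of floxed and WT mice was -0.49 to 0.0994 for Pnpla5.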

Other observations

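Lpin1, Lpin2 and Pnpla2 varied together between mice, which was noticed after the values were seen. The pairwise r of their within-group deviations over 21 mice was 0.80 for Lpin1 with Lpin2 and 0.86 for Lpin2 with Pnpla2. The 5 mice with the lowest Lpin2 counts in the mouse tables, at 4957 and 5886 (WT/Floxed saline replicates 2 and 5), 6186 (WT/Floxed LNA29 replicate 3), 4819 (L-Sirt1 KO saline replicate 1) and 5392 (L-Sirt1 KO LNA29 replicate 1), also had Lpin1 counts of 1174, 2106, 1943, 2481 and 1322, the lowest of their groups in each case apart from saline replicate 5, which was next to the lowest. The genes outside the set most like Lpin2 by the same measure, among 12751 genes, were Prpf18 (r = 0.95), Slc25a47 (0.94), Rnf4 (0.94), Nbr1 (0.94) and Oxsm (0.94).

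Pnpla3 ran opposite to Pnpla2 (r = -0.73) and had an r of -0.33 with Lpin1 and -0.41 with Lpin2, and for Pnpla5 these were -0.36, -0.11 and -0.13. In the same 5 mice Pnpla3 was at 806, 250, 278, 1784 and 601 counts and Pnpla5 at 29.1, 5.66, 8.56, 33.2 and 12.9.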
